A study of Mus musculus with 7 samples.

Results

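Gene expression was measured in the soleus of Yy1 knockout and wild type mice. The 10 genes described here are ligands, a receptor and regulators of vessel growth and of the response to low oxygen: Vegfa, Vegfb, Vegfc, Pgf, Angpt1, Angpt2, Epas1, Hif1a, Nrp1 and Pfkfb3. They were taken by symbol, with every probe set that the platform annotation assigns to exactly 1 gene, which gave 17 of the 22626 probe sets tested. The soleus is a postural muscle of the hindlimb, and its RNA was read on 1 Affymetrix array for each of 4 knockout and 3 wild type samples. All mice shared an age of 6 months and a mixed background of C57Bl/6 and 129. Yy1 encodes a zinc finger transcription factor. The labels used here do not state the deleted part of the gene, the cells in which it was deleted, or that arrays came from different animals. The p-values therefore reflect only the spread between samples, and that spread may be technical.

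VEGF ligands are secreted proteins that bind tyrosine kinase receptors on endothelial cells, with neuropilins as co-receptors, and muscle fibres themselves make VEGF-A to keep their capillaries. Angiopoietins act on a second endothelial receptor, Tie2, where angiopoietin-1 stabilises vessels and angiopoietin-2 often opposes it. Hypoxia-inducible factors are transcription factors whose alpha subunits, HIF-1 alpha (Hif1a) and HIF-2 alpha (Epas1), are destroyed when oxygen is plentiful, largely without a change in their mRNA.

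Levels are log2(intensity + 1). A log2 fold change is the mean level in knockout less that in wild type, so it is negative for a gene that is lower in knockout. A probe set is called when its limma p, adjusted by Benjamini-Hochberg over all 22626 probe sets, is below 0.05. Array medians were alike, from 139.1 to 143.2 intensity units. Yy1 was lower by 3 of its 4 probe sets, at 49.2%, 30.7% and 58.8% of wild type (adjusted p = 0.000271, 0.00012 and 0.00629), while its dimmest had a log2 fold change of -0.06 (adjusted p = 0.711). Markers of slow fibres lay above percentile 99.8 of all probe sets by mean level, as did Myh2 of fast fibres at 99.9.

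Vegfa, Vegfb, Nrp1 and Epas1 fell in knockout soleus by every one of their probe sets, and Pfkfb3 rose by its brighter one. Vegfc, Pgf, Angpt1, Angpt2 and Hif1a did not pass the test. In RNA of a whole muscle, fewer cells of a type and less RNA per cell cannot be told apart. Of the 17 probe sets, 7 were lower, 1 was higher and 9 were not called, beside 14.3% of all probe sets called lower, 14.3% called higher and 28.6% called in all. The median log2 fold change was -0.35 over the 17 probe sets and 0.01 over all probe sets. In 9 of the 17 the knockout and wild type values did not overlap, beside 36.4% of all probe sets.

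**Figure D1:**
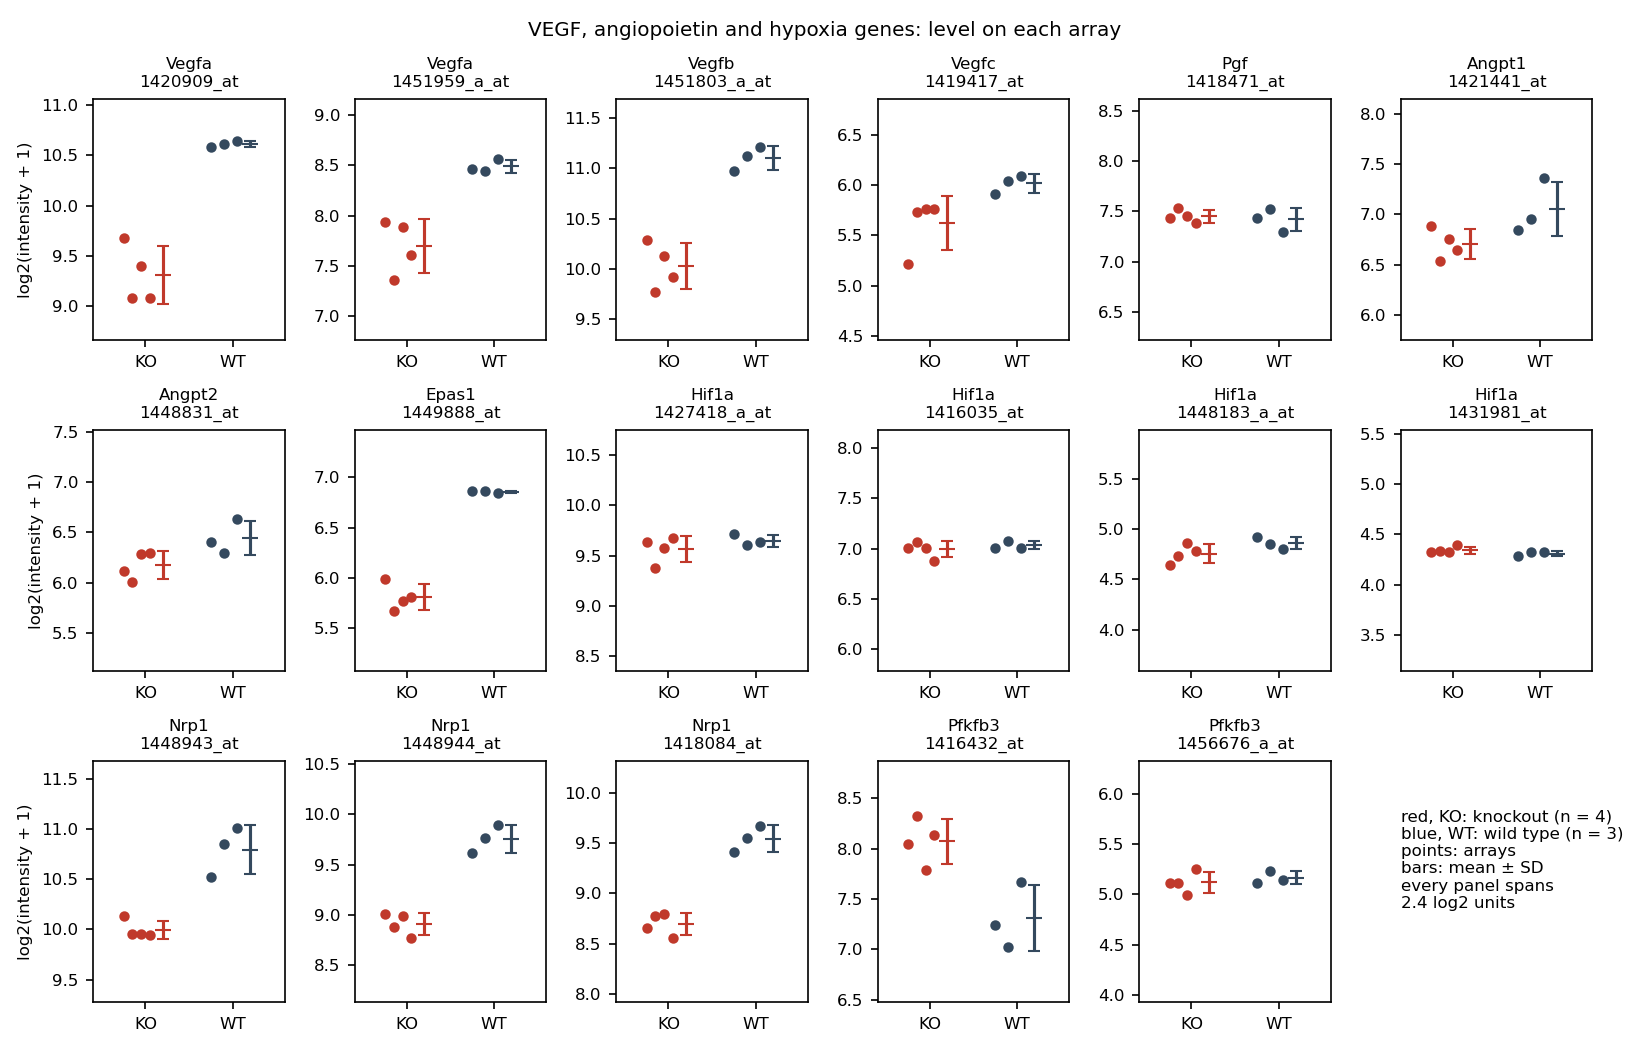
Level of each of the 17 probe sets on each array, as log2(intensity + 1), in knockout (KO, 4 arrays) and wild type (WT, 3 arrays), with mean and SD, every panel spanning the same range. The groups are apart for both Vegfa, the Vegfb, the Epas1 and all 3 Nrp1 probe sets, and they overlap for Pgf and all 4 Hif1a probe sets.

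Of the ligand probe sets, the brighter of Vegfa had the largest change, while the dimmer of Vegfa changed less than that of Vegfb. The brighter Vegfa probe set, 1420909_at, had intensities of 819, 542, 673 and 539 on the knockout arrays, against 1532, 1564 and 1599.9 on the wild type arrays. Every knockout array lay well below every wild type array, and the wild type arrays were close together while the knockout arrays spread. Mean levels were 9.31 ± 0.29 in knockout (SD, n = 4) and 10.61 ± 0.03 in wild type (SD, n = 3). The change was -1.30 (SE 0.14, adjusted p = 0.000335), which leaves 40.5% of the wild type signal. The dimmer Vegfa probe set, 1451959_a_at, had 244, 163, 236 and 194 in knockout and 351, 348 and 378 in wild type. It changed by -0.79 (SE 0.13, adjusted p = 0.00275), so both probe sets fell, by different amounts. The suffix _a_ marks a probe set whose probes match several transcripts of 1 gene, and Vegfa is known for many splice forms. These arrays do not tell them apart.

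Vegfb encodes VEGF-B, a ligand of VEGF receptor 1 that is abundant in heart and oxidative muscle and has little effect on vessel growth under most conditions. Its probe set had 1245, 870.2, 1120.3 and 971 in knockout and 2007, 2235 and 2374 in wild type. The highest knockout array lay below the lowest wild type array. The log2 fold change was -1.08 (SE 0.12, adjusted p = 0.000438), or 47.4% of wild type. Knockout array 2 was the lowest knockout array for Vegfb and for the dimmer Vegfa probe set, and knockout array 1 the highest for Vegfb and both Vegfa probe sets.

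The RefSeq bases before the start sites of these falling ligands are shown with the core of the hypoxia response element in capitals, since HIFs bind there. The cores searched were ACGTG and GCGTG on both strands, so that they also appear as CACGT and CACGC. The windows are the 250 bases before each start in build GRCm38.p6, 5′ to 3′ on the gene's strand, the minus strand for Vegfa (chr17:46032378-46032627) and Vegfb (chr19:6987652-6987901).
Vegfa: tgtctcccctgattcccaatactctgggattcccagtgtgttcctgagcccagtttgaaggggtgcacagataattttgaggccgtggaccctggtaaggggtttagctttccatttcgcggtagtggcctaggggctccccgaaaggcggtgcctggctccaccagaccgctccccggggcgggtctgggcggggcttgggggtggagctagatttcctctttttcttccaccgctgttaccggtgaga
Vegfb: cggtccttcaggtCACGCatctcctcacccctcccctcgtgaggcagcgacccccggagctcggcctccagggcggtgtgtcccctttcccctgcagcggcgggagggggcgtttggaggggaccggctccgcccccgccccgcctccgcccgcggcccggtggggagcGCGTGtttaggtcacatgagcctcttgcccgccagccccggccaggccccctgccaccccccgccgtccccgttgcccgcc
The Vegfb window held a GCGTG core in 2 places, and the Vegfa window at its outermost start held neither core. Bases further upstream were not searched, so a window without a core does not show that the gene lacks one. Another annotated Vegfa start lies further into the gene, so the window before it (chr17:46025164-46025413) is inside the gene. That window held both cores once each. RefSeq windows were found for 7 of the 10 genes, some with several starts. Of these 10 windows, 7 held a core, as did 38.6% of the 32851 windows of the same length in the table. A core is only 5 letters, and a match is a description of the letters, not a binding site. The motif AANATGGC, a form of the YY1 recognition sequence, occurred on neither strand in any of the 10 windows and in 3.91% of all windows.

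Vegfc encodes the ligand of lymphatic endothelium and Pgf placental growth factor, another ligand of VEGF receptor 1. Vegfc measured 36.3, 52.1, 53.4 and 53.4 in knockout and 59.3, 65.0 and 67.3 in wild type. All knockout arrays lay below all wild type arrays, but the probe set was dim, at percentile 32.3 of all probe sets, and knockout array 1 stood apart below the rest. The log2 fold change was -0.40 (SE 0.14, 95% interval -0.71 to -0.09, adjusted p = 0.0597), which missed the threshold. Without knockout array 1 it was smaller, -0.26, and passed (adjusted p = 0.0216), within a range of 0.0216 to 0.176 over the 15 alternatives run for it.

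Pgf had 172, 184, 174 and 166 in knockout and 172, 183 and 156 in wild type. The groups overlapped throughout. Its log2 fold change was 0.03 (SE 0.07, adjusted p = 0.757), with a 95% interval of -0.12 to 0.19 that does not reach the changes of Vegfa or Vegfb.

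Both angiopoietins were below the median level of all probe sets and missed the threshold. Angpt1 had 117, 91.8, 107 and 99.1 in knockout and 114, 123 and 163 in wild type, and the groups overlapped because knockout array 1 lay above wild type array 1. Its log2 fold change was -0.35 (SE 0.13, 95% interval -0.65 to -0.05, adjusted p = 0.08). Angpt2 had 68.4, 63.1, 76.7 and 77.4 in knockout and 83.7, 77.4 and 98.2 in wild type. The highest knockout array and the lowest wild type array had the same value. The log2 fold change was -0.27 (SE 0.10, 95% interval -0.50 to -0.04, adjusted p = 0.0828). The intervals leave out a change as large as that of Vegfa, and also leave out 0.

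Nrp1 encodes neuropilin-1, a co-receptor for VEGF-A and a receptor for class 3 semaphorins that is found on endothelium among other cells. All 3 of its probe sets fell by nearly the same amount. The brightest, 1448943_at, had 1123, 992, 991 and 981 in knockout and 1471, 1843 and 2061 in wild type. The knockout arrays were close together, with array 1 the highest, and the wild type arrays spread. It changed by -0.80 (SE 0.11, adjusted p = 0.00115), to 57.5% of wild type. Probe set 1448944_at changed by -0.84 (SE 0.09, adjusted p = 0.000266) and 1418084_at by -0.85 (SE 0.08, adjusted p = 0.000239), with levels of 8.91 ± 0.11 and 8.70 ± 0.11 in knockout (SD, n = 4) and 9.76 ± 0.14 and 9.55 ± 0.13 in wild type (SD, n = 3). The annotation gives all 3 the same accession, so they are not independent readings of the gene. The 250 bases before its start, on the plus strand at chr8:128358823-128359072 of GRCm38.p6, held 1 core, in capitals, 166 bases before the start.
Nrp1: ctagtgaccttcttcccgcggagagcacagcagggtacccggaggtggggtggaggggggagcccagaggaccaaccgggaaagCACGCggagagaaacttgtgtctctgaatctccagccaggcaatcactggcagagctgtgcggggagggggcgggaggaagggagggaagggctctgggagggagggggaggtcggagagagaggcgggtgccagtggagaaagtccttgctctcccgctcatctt

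Of the HIF alpha subunit genes, Epas1 fell and Hif1a did not pass the test. Epas1, which is prominent in endothelium, had 62.6, 50.1, 53.6 and 55.0 in knockout and 115.9, 115.2 and 114.2 in wild type. Knockout values were about even and far below the wild type arrays, which were nearly equal. The log2 fold change was -1.05 (SE 0.08, adjusted p = 7.98e-05), or 48.4% of wild type, the smallest adjusted p of the 17 probe sets. Its only probe set lay at percentile 38.5 of all probe sets.

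Hif1a had 792, 666, 762 and 816 in knockout and 840, 776 and 792 in wild type by its brightest probe set, 1427418_a_at. The groups overlapped, and the log2 fold change was -0.08 (SE 0.08, 95% interval -0.26 to 0.09, adjusted p = 0.469). The other 3 Hif1a probe sets changed by -0.10 to 0.04 (adjusted p = 0.286 to 0.664). Of these 3, 1448183_a_at and 1431981_at lay at percentiles 14.9 and 4.72 and say little. Probe set 1416035_at had an identical intensity of 128 on 4 of the 7 arrays, 2 in each group, and nearby values on the others. Transcript levels do not measure the HIF proteins.

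Pfkfb3 makes the sugar phosphate that activates phosphofructokinase, the pacing enzyme of glycolysis, and is a known HIF target that endothelial cells use when they sprout. Its brighter probe set, 1416432_at, had 263, 319, 220.1 and 279.8 in knockout and 150.1, 129 and 203 in wild type. All knockout arrays lay above all wild type arrays, with knockout array 3 and wild type array 3 close to each other. The log2 fold change was 0.76 (SE 0.17, adjusted p = 0.00955), 169% of wild type. The dim probe set 1456676_a_at, at percentile 21.9, measured -0.04 (SE 0.07, adjusted p = 0.681) and does not show the rise. Averaging both probe sets gave 0.36, less than the brighter one alone by more than 1.5 times. Pfkfb3 has several annotated starts on the minus strand, and those in the table are shown by their 250 upstream bases in GRCm38.p6, a (chr2:11553930-11554179) and b (chr2:11502091-11502340), with the cores in capitals.
Pfkfb3 a: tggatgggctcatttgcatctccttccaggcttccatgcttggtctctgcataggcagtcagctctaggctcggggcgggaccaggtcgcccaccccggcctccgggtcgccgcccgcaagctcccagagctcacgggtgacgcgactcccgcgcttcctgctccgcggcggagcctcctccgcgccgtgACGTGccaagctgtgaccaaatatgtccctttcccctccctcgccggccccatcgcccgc
Pfkfb3 b: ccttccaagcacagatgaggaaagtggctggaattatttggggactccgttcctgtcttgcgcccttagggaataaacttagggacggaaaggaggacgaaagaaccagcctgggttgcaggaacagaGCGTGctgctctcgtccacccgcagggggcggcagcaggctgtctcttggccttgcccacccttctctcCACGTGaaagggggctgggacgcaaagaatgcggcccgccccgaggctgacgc
Window a held 1 core, 60 bases before the start. Window b held 3, of which 2 overlap on opposite strands in the run CACGTG and 1 lies 122 bases before the start. Cores were present in windows of Pfkfb3, which rose, of Vegfa, Vegfb and Nrp1, which fell, and of Hif1a and Pgf, which were not called. Whether any core bears on these changes was not tested.

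**Figure D2:**
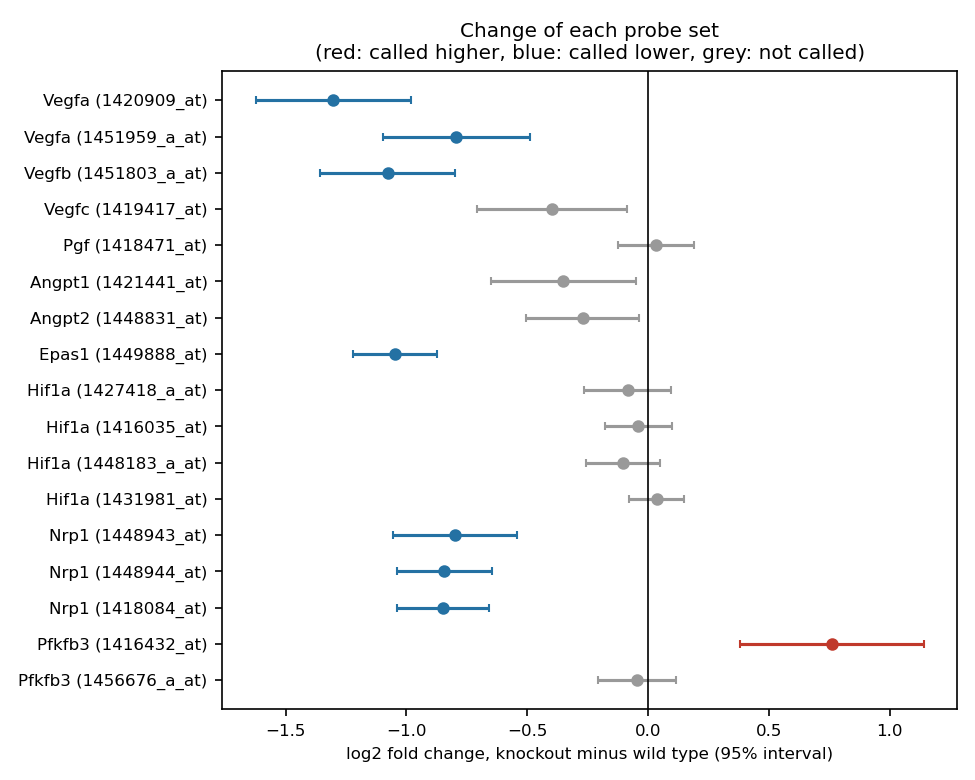
Log2 fold change, knockout minus wild type, of each of the 17 probe sets, with its 95% interval from limma on the horizontal axis. The 7 called lower lie between -1.30 and -0.79, and the 1 called higher, of Pfkfb3, at 0.76.

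Within-array log2 differences, which remove any shift of a whole array, were compared for 7 pairs chosen with earlier results of these data known. The test was an exact permutation test over the 35 ways to divide the arrays. Its smallest p is 0.0286. The values of different probe sets are not on one scale, so only the change of a difference between genotypes is read. None of the 7 passed after adjustment. A pair at the smallest p could pass only if most of the pairs reached it too, so these misses decide little. Pgf minus Vegfa averaged -1.86 ± 0.30 in knockout (SD, n = 4) and -3.20 ± 0.13 in wild type (SD, n = 3), a gain of 1.34 (exact permutation p = 0.0286, adjusted p = 0.1). Hif1a minus Epas1 averaged 3.75 ± 0.10 in knockout and 2.79 ± 0.05 in wild type, a gain of 0.96 (exact permutation p = 0.0286, adjusted p = 0.1). In both, every knockout array lay above every wild type array. Vegfc minus Vegfa gained 0.91 and Vegfa minus Vegfb changed by -0.23 (exact permutation p = 0.0571 and adjusted p = 0.1 for each), again with no overlap. With the probe sets of a gene averaged, Vegfa minus Vegfb turned to 0.029.

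Angpt2 minus Angpt1, a balance often quoted for vessel stability, averaged -0.53 ± 0.18 in knockout and -0.61 ± 0.15 in wild type, a difference of 0.08 (exact permutation p = 0.571, adjusted p = 0.667). The groups overlapped. Against the mean of 14 endothelial markers on the same array, Nrp1 differed between genotypes by 0.02 (exact permutation p = 0.857, adjusted p = 0.857) and Epas1 by -0.23 (exact permutation p = 0.143, adjusted p = 0.2), with overlap in both. A p that misses the threshold does not show that these genes changed by the same amount as the markers.

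**Figure D3:**
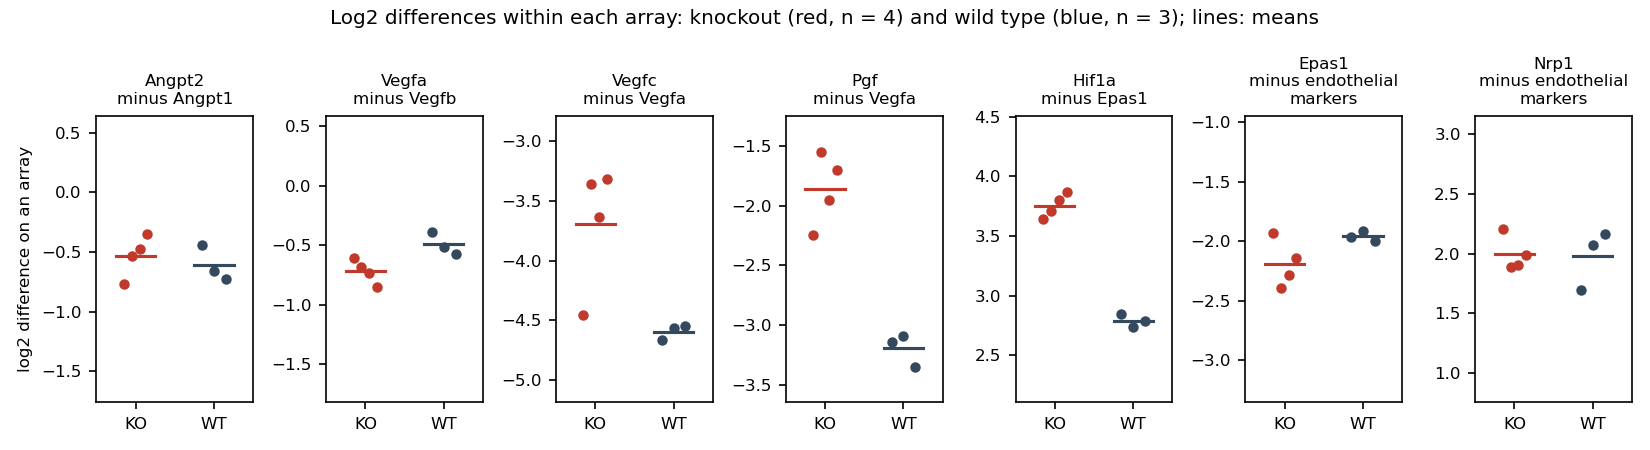
Log2 differences on each array (vertical axis) for the 7 pairs, in knockout (KO, 4 arrays) and wild type (WT, 3 arrays), with lines at the means. The groups are apart for Vegfa minus Vegfb, Vegfc minus Vegfa, Pgf minus Vegfa and Hif1a minus Epas1, and overlap for the other 3.

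Several receptors of these ligands fell too. Taking 1 probe set per gene, the brightest, 31.8% of 12393 genes were called, 16.3% higher and 15.5% lower, with a median log2 fold change of 0.01. Of 5 genes in the list of VEGF receptors and VEGF-D, 3 were lower and none higher (median -0.81). Kdr, the main signalling receptor for VEGF-A, averaged 8.38 ± 0.21 in knockout (SD, n = 4) and 9.66 ± 0.13 in wild type (SD, n = 3), a change of -1.28 (SE 0.12, adjusted p = 0.000164). Flt1, of VEGF receptor 1, changed by -0.81 (SE 0.08, adjusted p = 0.000288) and by -1.04 and -0.39 in its other probe sets. The ligand gene Vegfd changed by -0.93 (SE 0.13, adjusted p = 0.00116). Of 6 angiopoietin receptors and partners, 3 were lower and 1 higher (median -0.47). Tek, of the angiopoietin receptor Tie2, fell to 49.9% of wild type (SE 0.10 on the log2 scale, adjusted p = 0.000245), while the related receptor gene Tie1 changed by -0.96 (SE 0.07) and Ptprb, of a phosphatase that acts on Tie2, by -0.99 (SE 0.06). Svep1, of a matrix protein, was higher by 0.52 (SE 0.15, adjusted p = 0.034). It lost its call without knockout array 2 (adjusted p = 0.0822) or wild type array 1 (0.102), 2 (0.0777) or 3 (0.109).

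Of 9 measured semaphorin 3 and plexin genes, which include partners of neuropilin-1, 2 were higher and none lower (median 0.09). Sema3c changed by 0.56 (SE 0.14, adjusted p = 0.0155) and Sema3a by 0.34 (SE 0.11, adjusted p = 0.0455). Both were among the 6 genes of the list below the median level. For Sema3c, knockout array 1 and wild type array 2 had the same intensity, 113.5. Sema3a kept its call only without wild type array 1 (adjusted p = 0.0729 to 0.0991 without any other), and its other probe sets changed by -0.01 and -0.16. Sema3c lost its call without wild type array 1 (0.0663) or 3 (0.0695). Without wild type array 3 no gene of the list was higher and 1, Plxna1, was lower (adjusted p = 0.0372).

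Of 9 measured genes of HIF subunits, oxygen sensors and further HIF regulators (Vhl, Cited2 and Crebbp), 1 was higher and 1 lower (median -0.07). Egln2, of a prolyl hydroxylase that marks HIF alpha for destruction, rose by 0.30 (SE 0.07, adjusted p = 0.00993). Egln3, of a related hydroxylase that is itself a HIF target, changed by -0.43 (SE 0.10, adjusted p = 0.0129) and lost its call without wild type array 2 (0.0563) or 3 (0.0574). The dimmer Egln3 probe set changed by -0.49 (adjusted p = 0.00629), without overlap. Without knockout array 1 Arnt, the beta subunit, was also higher (adjusted p = 0.0225). Of 23 measured genes known to be induced by HIF in low oxygen, 3 were lower, 1 was higher and 19 were not called (median -0.04). Hk2, hexokinase 2, changed by -0.84 (SE 0.10, adjusted p = 0.000459), the collagen prolyl hydroxylase P4ha2 by -0.63 (SE 0.10, adjusted p = 0.00239) and the mitochondrial protein gene Higd1a by -0.23 (SE 0.06, adjusted p = 0.0177). Hk1, another hexokinase, rose by 1.27 (SE 0.12, adjusted p = 0.000227). Without knockout array 3 Adm, of the vessel peptide adrenomedullin, was called higher as well (adjusted p = 0.0325) and the glycolytic gene Tpi1 lower (0.0483). Without wild type array 1 Ldha, of lactate dehydrogenase, was lower (0.0313), and without wild type array 2 Higd1a lost its call (0.067). Its other probe sets measured -0.23 and -0.04 (adjusted p = 0.175 and 0.746), and that of Hk1 0.43 (adjusted p = 0.0479). Of the phosphofructokinase-2 family outside Pfkfb3, 1 gene was measured, Pfkfb2, at -0.18 (SE 0.08, adjusted p = 0.124; 0.0218 without knockout array 3).

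Of 6 listed coactivators and nuclear receptors, some of them known to raise Vegfa in muscle, 4 were lower and none higher (median -0.46). The 2 not called, Esrrg and Ppard, lay below the median level. Ppargc1a, of the coactivator PGC-1 alpha, had 1497, 599, 1611 and 1336 in knockout and 2235, 2332 and 2408 in wild type. Knockout array 2 was far below the other arrays, and it had the second lowest knockout value of the brighter Vegfa probe set. The log2 fold change was -0.98 (SE 0.31, adjusted p = 0.0435). The other Ppargc1a probe sets changed by -1.06 to -0.96, without overlap (adjusted p = 0.0313 to 0.0512). Ppargc1b changed by -0.44 (SE 0.12, adjusted p = 0.0238). Esrra, of ERR alpha, a nuclear receptor through which PGC-1 alpha acts on Vegfa, changed by -0.49 (SE 0.11, adjusted p = 0.00917) and Esrrb by -0.51 (SE 0.11, adjusted p = 0.00903; -0.04 in its other probe set). The number lower was 2 when knockout array 4 or either of the wild type arrays 2 and 3 was left out, where both coactivator genes missed the threshold (adjusted p = 0.0583 to 0.126). Ppargc1a alone missed it without wild type array 1 (0.105), and Ppargc1b alone without knockout array 2 (0.0649) or 3 (0.0505).

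Of 18 measured other factors that promote or restrain vessel growth, 7 were lower and 2 higher (median -0.27). Cxcl12, a chemokine that guides endothelial and blood cells, changed by -1.45 (SE 0.08, adjusted p = 4.88e-05), but by only -0.15 (adjusted p = 0.272) in its dimmer probe set. Notch4, an endothelial Notch receptor gene, changed by -0.83 (SE 0.08, adjusted p = 0.000245), while its other, dim probe set measured -0.08 (adjusted p = 0.675). Nos3, of endothelial nitric oxide synthase, changed by -0.63 (SE 0.07, adjusted p = 0.000312) and the growth factor gene Fgf1 by -0.91 (SE 0.11, adjusted p = 0.000678). Pdgfa, a growth factor for stromal cells, rose by 0.49 (SE 0.08, adjusted p = 0.00248) and Adamts1, of a protease that restrains vessel growth, by 0.83 (SE 0.17, adjusted p = 0.00701).

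**Figure D4:**
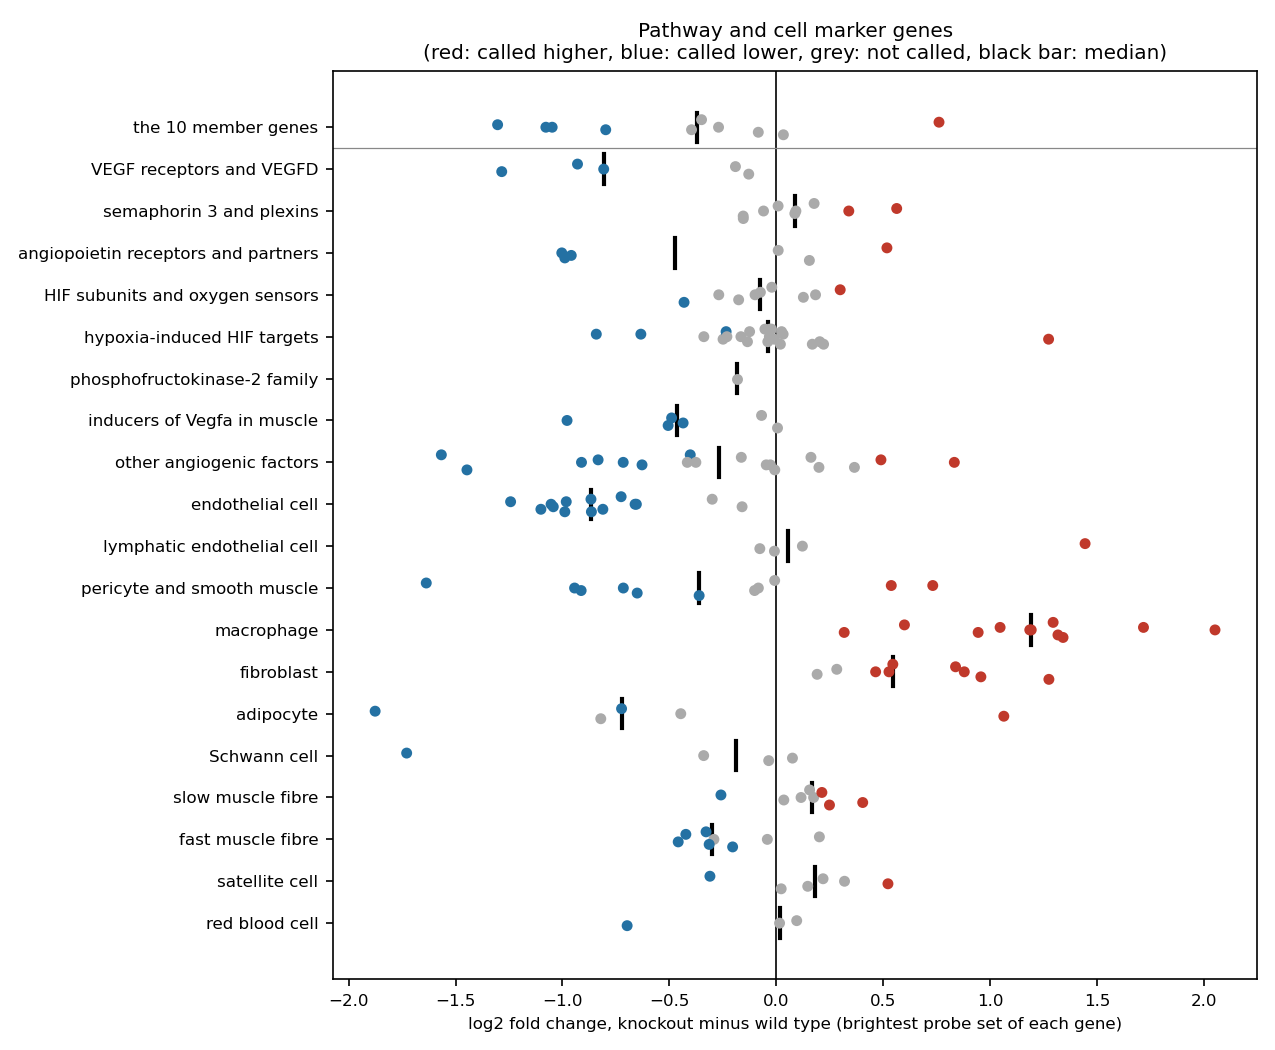
Log2 fold change, knockout minus wild type (horizontal axis), of each gene's brightest probe set, for the 10 genes described here, 8 lists of related pathway genes and 11 lists of cell markers, with the median of each as a bar. Endothelial markers lie below 0 and macrophage markers above it, and most HIF targets lie near 0.

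Markers of other cells moved with genotype as well. Of 14 measured endothelial markers, 12 were lower and none higher (median -0.87), with Ptprb as above and Sox17, an endothelial transcription factor, at -0.98 (SE 0.07, adjusted p = 7.49e-05). Their summed intensity was 4026 to 4533 in knockout and 7597 to 7935 in wild type, without overlap. No marker was at 0, and Robo4 and Erg lay below the median level. Of 11 pericyte and smooth muscle markers, 6 were lower and 2 higher (median -0.36), with Kcnj8, a potassium channel gene of pericytes, at -1.64 (SE 0.08, adjusted p = 4.01e-05) and Rgs5 at -0.91 (SE 0.08, adjusted p = 0.000189). The 3 further Rgs5 probe sets lay between -1.81 and -1.29. The higher markers were Cspg4, of the pericyte proteoglycan NG2, at 0.73 (SE 0.10, adjusted p = 0.0012), and Des. Pdgfrb, of a growth factor receptor of pericytes, measured -0.08 (adjusted p = 0.662), Acta2, of smooth muscle actin, -0.01 (adjusted p = 0.931) and Cnn1 -0.10 (adjusted p = 0.386). Their summed intensity was 37125 to 39520.2 in knockout and 33838 to 36810.2 in wild type, higher in knockout although most members fell. The brightest member, Des, which muscle fibres also express, rose by 0.54. The part of these cells in the fall of Vegfa, Vegfb, Nrp1 and Epas1 was not tested.

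Macrophage markers, of cells that can make Vegfa and Vegfc, were higher in 11 of 11 cases (median 1.19), with Cd68 at 2.05 (SE 0.13, adjusted p = 5.68e-05) and Ptprc, the pan-leukocyte CD45, at 1.72 (SE 0.16, adjusted p = 0.000215). Their summed intensity was 8079 to 13561 in knockout and 3702 to 4534 in wild type. C1qb and Cd163 lost their calls without wild type array 1 (adjusted p = 0.0542 and 0.0582). Itgam kept its call only without wild type array 2 (adjusted p = 0.0549 to 0.148 without any other). Of 9 measured fibroblast markers 7 were higher and none lower (median 0.54), with Col3a1 at 1.27 (SE 0.23, adjusted p = 0.00373) and Col1a1 at 0.96 (SE 0.16, adjusted p = 0.00265), and 3 were higher when either of the wild type arrays 1 and 2 was left out. The other probe set of Col1a1 measured 0.47 (adjusted p = 0.121), with overlap, and that of Col3a1 1.63 (adjusted p = 0.00135). Their part in the levels of the 10 genes was not tested.

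Of the other lists, lymphatic endothelial markers had 1 of 4 higher, Pdpn at 1.44 (SE 0.14, adjusted p = 0.000209), with Lyve1 at 0.12 (SE 0.09, adjusted p = 0.331). Adipocyte markers had 2 of 5 lower and 1 higher, with Fabp4 at -0.72 (SE 0.09, adjusted p = 0.000668) and Lep at -1.88 (SE 0.35, adjusted p = 0.00487). Lep lay below the median level. Among 4 Schwann cell markers 1 was lower, Mbp at -1.73 (SE 0.31, adjusted p = 0.00401), with 7 further Mbp probe sets between -1.37 and -0.23, and S100b at -0.34 (SE 0.13, adjusted p = 0.0887; 0.0321 without wild type array 2). Slow fibre markers were higher in 3 of 8 and lower in 1 case, with Tnni1 at 0.40 (SE 0.06, adjusted p = 0.00181) and Myl3 at -0.26 (SE 0.06, adjusted p = 0.00932). Of 8 fast fibre markers 5 were lower, with Myh2 at -0.46 (SE 0.11, adjusted p = 0.0122) and Atp2a1 at -0.33 (SE 0.08, adjusted p = 0.012). Fewer passed without wild type array 2, with 1 slow marker higher and 2 fast markers lower, and 3 and 2 fast markers were lower without wild type array 1 and 3. Of 6 satellite cell markers, Myf5 rose by 0.52 (SE 0.10, adjusted p = 0.00636), at a level below the median. Sdc4 changed by -0.31 (SE 0.07, adjusted p = 0.0112), and by -0.25 in its other probe set (adjusted p = 0.0913). The 3 red blood cell markers all lay below the median level. Alas2 changed by -0.70 (SE 0.19, adjusted p = 0.0268), a call lost without knockout array 2 (0.0648) or wild type array 1 (0.093) or 3 (0.11). Slc4a1 measured 0.10 (SE 0.07, adjusted p = 0.33), and -0.10 and -0.03 in its other probe sets.

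The genes with the most similar pattern over the 7 arrays were found by Pearson correlation between brightest probe sets, among 12393 genes. The 7 values span both genotypes and all genes share the arrays, so these correlations are a description and mostly follow the genotype difference where that is large. Vegfa was most like Slc25a3 (r = 0.999), of the mitochondrial phosphate carrier, and Tceal1 (r = 0.999). Vegfb was most like Bnip1 (r = 0.998) and Ndufv2 (r = 0.997), of a subunit of respiratory complex I. Epas1 was most like Dach2 (r = 0.999), of a transcriptional corepressor, and Dnajc30 (r = 0.999). Nrp1 was most like Rab1b (r = 0.996) and Adam7 (r = 0.990), and Pfkfb3 most like Atp2c1 (r = 0.994) and Tmem183a (r = 0.990). For the genes that were not called, the closest were Tex13b for Vegfc (r = 0.982), Col4a3 for Pgf (r = 0.992), Shfl for Angpt1 (r = 0.978), Ly6d for Angpt2 (r = 0.979) and Nptx1 for Hif1a (r = 0.991), all of which had an adjusted p above the threshold themselves.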

How the data were processed

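The authors deposited 1 intensity per probe set and array on a linear scale, and RMA is named per the submitters' processing notes. No label or header used here gives its version or scan batches. Of 22690 probe sets, 64 controls were left out, and 20380 had 1 gene symbol, updated through Entrez identifiers. The values were taken to log2(value + 1), and knockout was compared with wild type for all probe sets in R 4.3.3 by two-sided moderated tests of limma 3.58.1 (lmFit, then eBayes), with no filter and no pairing. Groups came from the titles. No pair of arrays was a duplicate, with at most 1819 identical values. Arrays hold no sequencing depth, and their number limits the precision. The table held 0 columns of other samples.

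The 10 genes, the 19 gene lists and the pairs were chosen with earlier results of these data known. Named genes are the 10, Yy1, up to 4 genes per pathway list and direction with the smallest p, 2 per marker list and the 2 most similar to each of the 10. Other genes are named where leaving out an array changed a count or to complete a list, or because of their level, chosen after their values were seen. A list gene is read by its brightest probe set, and Ptprb stands in 2 lists. The scripts were tested on simulated data. Alternatives were other pseudocounts, a level filter, normalizations, moderation, the unit of the test, a replicate block and leaving out each array. Sequences are RefSeq's, build GRCm38.p6.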

Additional observations from a re-analysis of the deposited data

Results flagged for a closer look

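In 8 of 75 sets of knockout values tested, 1 of the 4 knockout arrays lay apart from the other 3, by a gap that exceeded Dixon's critical value for 4 samples. Chance gives about 5% of such sets. Among the genes described here these were Vegfc, with knockout array 1 low at 5.22 log2 units, and the brightest Nrp1 probe set, with knockout array 1 high at 10.13. Tek was low on that array at 8.01, and Myl3 high at 15.26. Adamts1 was high on knockout array 2, at 10.08. On knockout array 3, Col1a1 was high at 9.96, Pfkfb2 high at 6.51 and S100b low at 5.15.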

How the results depend on the processing

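Of 250 values of the 17 probe sets under up to 16 alternatives, 244 kept their direction and side of the threshold, 4 gained a call and 1 lost it. The remaining 1 changed sign with no call in either case, Pgf without wild type replicate 3. Leaving out arrays moved Pgf between -0.027 and 0.084. Every probe set of Vegfa, Vegfb, Epas1 and Nrp1 stayed lower and called in each alternative run for it. Leaving out 1 array, 7 to 8 of the 17 were lower and 1 to 1 higher, against 4878 to 6224 called over the whole table. Vegfc also passed with quantile normalization (adjusted p = 0.0439).

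Samples with the same replicate number did not deviate together (correlations -0.10 to 0.05 over 3 pairs). Pairs with different numbers ranged from -0.15 to 0.15. With so few pairs, whether samples of the same number share more than that number cannot be told. With the replicate number as a block, 0 of the probe sets were higher, since Pfkfb3 missed the threshold (adjusted p = 0.0555, against 0.00576 to 0.0555 over its alternatives). With the same block 9 were lower, with Vegfc (0.0273) and Angpt2 (0.0273), and 5060 were called in all. By gene, 4 of the 10 genes were lower both with the brightest probe set (4082 genes called) and with probe sets averaged (4112 called), as there are fewer values to call. Without 1 array, 4 to 7 pathway genes were higher (7 with all arrays) and 16 to 22 lower (21), and 20 to 25 marker genes were higher (26) and 25 to 29 lower (29). Leaving out arrays moved Pgf minus Vegfa between 1.23 and 1.46, Hif1a minus Epas1 between 0.93 and 1.00, and Vegfc minus Vegfa between 0.78 and 1.16. Small differences changed sign, with none called. Vegfa minus Vegfb was 0.029 with probe sets averaged. Nrp1 minus the endothelial mean was -0.00868 with a pseudocount of 16, -0.031 with probe sets averaged, and -0.12 to 0.11 without 1 array. The files hold no detection call, so how far each probe set lies above background was not tested.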
